A study of Mus musculus with 6 samples.

Results

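The cells described here are the 25 with the highest and the 25 with the lowest mean score of Fos and Nr4a1 in each of 2 libraries, called HSC2/MPP4 and CD48-negative HSC2, and are 100 of the 497 single mouse cells of the study. They were chosen by ranking the 89 cells of the first library and the 86 of the second on the mean of the 2 deposited scores, with no other gene used. A score is a normalised expression value in units of the SD of that gene over all 497 cells. Fos and Nr4a1 therefore differ between high and low cells by construction, and both were left out of every count below. The cells of a library were compared only with cells of the same library, and a gene was followed when it differed in the same direction in both.

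All cells were sorted from C57BL/6 mice and sequenced singly by a modified Smart-seq2 method with enrichment of transcript 3' ends. The HSC2/MPP4 library mixes MPP4 cells with CD48+ HSC2. Its counterpart, CD48-negative HSC2, mixes CD48- HSC2 cells with and without CD201, the endothelial protein C receptor that marks stem cells. Both came from bone marrow of mice aged 8 weeks, with no genetic change or treatment given in the labels, and both are labelled total RNA. The other 4 libraries (double-negative, HSC1, HPC1 and MPP2-containing) hold cells of related gates from mice of 8 to 10 weeks, are labelled polyA RNA, and served here only as cells that the choice of genes did not use. HSC1 and HPC1 are labelled spleen although the series title names bone marrow. The number of mice is not given, each group is 1 library, and a cell cannot be traced to its gate within a library. High and low cells may therefore differ in gate, which cannot be told apart from a difference in Fos and Nr4a1. Since 1 library is 1 sample and cells are not replicates, no p-value was computed, and each difference is given with its size and the spread over cells.

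Fos encodes a subunit of the AP-1 transcription factor, and Nr4a1 encodes an orphan nuclear receptor. Both are immediate early genes: their transcription starts quickly after a signal reaches the cell, without new protein synthesis, through factors such as SRF and CREB that already sit in the cell, and their RNA is short-lived. The wave that follows includes other transcription factors and inhibitors that end the signal, such as phosphatases of MAP kinases and proteins that bring about decay of unstable RNA. The same genes are known to be induced in many tissues by growth factors and cytokines and by the handling of cells during dissociation and sorting.

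Sorting markers followed the labels. Cd48 was detected in 70.8% of HSC2/MPP4 cells but 3.49% of CD48-negative HSC2 cells, and Procr, which encodes CD201, in 27.0% and 54.7%. High and low cells differed in depth. In HSC2/MPP4, the median total count per cell was 18624 in high and 41878 in low cells, and in CD48-negative HSC2 it was 19196 and 23887. The lowest cell, a low HSC2/MPP4 cell, held 530 counts. Across all cells of a library, the Spearman correlation of total count with the mean score was -0.17 in HSC2/MPP4 and -0.05 in the CD48-negative library, over cells that share a library. Values at equal depth, from cells thinned to 10000 counts, are given below for gene counts and for Junb, Klf6 and 4 lower genes. Of the 15 leading higher genes described below, 13 were called again with thinned cells ranked anew and 13 in the same cells thinned. For the 15 leading lower genes these numbers were 6 and 5. The part of depth in each difference was not tested further. A total of 85 cell numbers occur in both libraries, but no pair of cells held the same recovered counts.

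Cells in the low groups mostly lacked Nr4a1 and held little Fos. Fos levels, in CPM (counts scaled to a total of 1e+06 per cell), were 500.3, 3530.3 and 9945 (lowest, median and highest) in high HSC2/MPP4 cells and 0, 42.1 and 1887 in low ones. In CD48-negative HSC2 they were 978, 4453 and 14374 in high and 0, 133 and 2408 in low cells. For Nr4a1 the values were 171, 661 and 2692 against 0, 0 and 75.8 in HSC2/MPP4 and 387, 1096 and 3172 against 0, 0 and 108 in CD48-negative HSC2. Every high cell thus lay above every low cell for Nr4a1, while Fos overlapped. Both genes were missing from 6 low HSC2/MPP4 cells and 7 low CD48-negative HSC2 cells. Scores of the 2 genes were correlated over the cells of a library (Spearman 0.44 and 0.51). The last cell inside the high group had a mean score of 0.92 in HSC2/MPP4 and 1.24 in the CD48-negative library, and the next cell outside 0.91 and 1.23. At the low end the last cell inside and the next outside were both at -0.14 in HSC2/MPP4, and at 0.03 and 0.12 in CD48-negative HSC2. No gap thus separates the chosen cells from their neighbours, but the largest step in HSC2/MPP4, from -0.47 to -0.86, lies inside the low group.

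**Figure D1:**
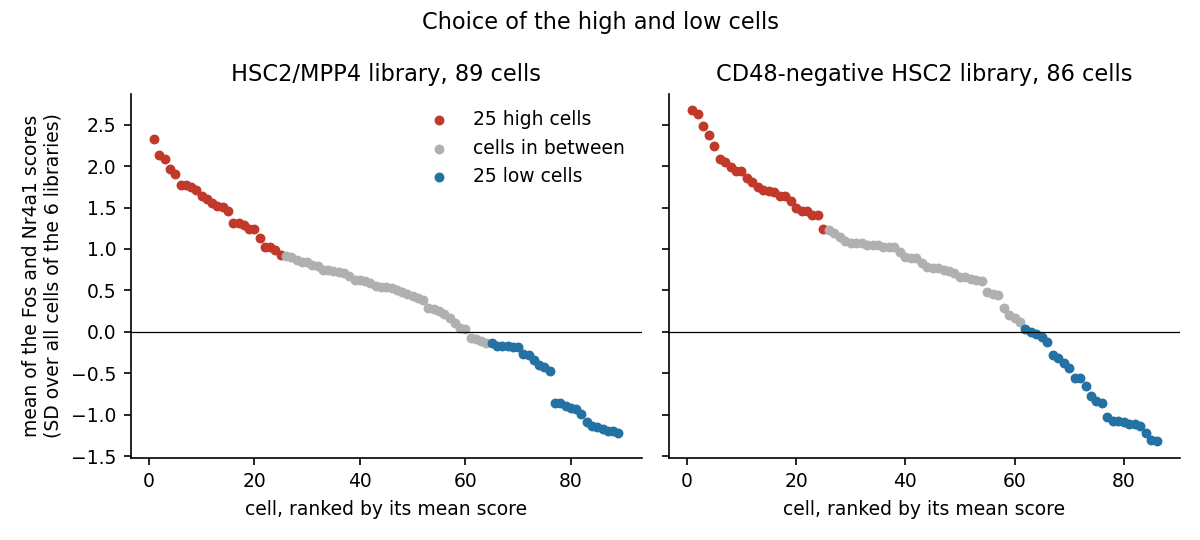
Mean of the Fos and Nr4a1 scores (y axis, in SD over 497 cells) of each cell, ranked within its library (x axis), with 1 point per cell and the 25 high cells in red, the 25 low cells in blue and the rest in grey. The scores fall from 2.33 to -1.22 in the HSC2/MPP4 library, with the largest step between -0.47 and -0.86 among the low cells, and from 2.68 to -1.32 in the CD48-negative HSC2 library.

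Cells high for Fos and Nr4a1 were also high for a set of other immediate early genes and their feedback inhibitors. Of 7577 genes compared, 67 (0.884%) had a mean score at least 0.5 higher in high cells in both libraries, and 24 (0.317%) at least 0.5 lower in both. In opposite directions, 33 genes (0.436%) were higher in HSC2/MPP4 and lower in CD48-negative HSC2, and 14 (0.185%) the reverse. A single library gave many more: 497 genes were higher (6.56%) and 401 lower (5.29%) in HSC2/MPP4, against 521 (6.88%) and 480 (6.33%) in CD48-negative HSC2, so most differences of this size in 1 library had no counterpart in the other. Over all genes, 51.4% differed in the same direction of any size. A difference of at least 1 in both libraries was found for 6 genes (0.0792%), all higher in high cells: Junb, Klf6, Dennd4a, Rgs1, Dusp5 and Ier2. At equal depth the overlap was partial. With the cells of at least 10000 counts thinned to 10000 and ranked again, 48 genes were higher in both libraries (24 of the 63 higher genes still compared) and 17 lower (6 of 21). At the edge of the call, Ptpra (0.50) was the last higher gene inside and Plk2 (0.499) the first outside.

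**Figure D2:**
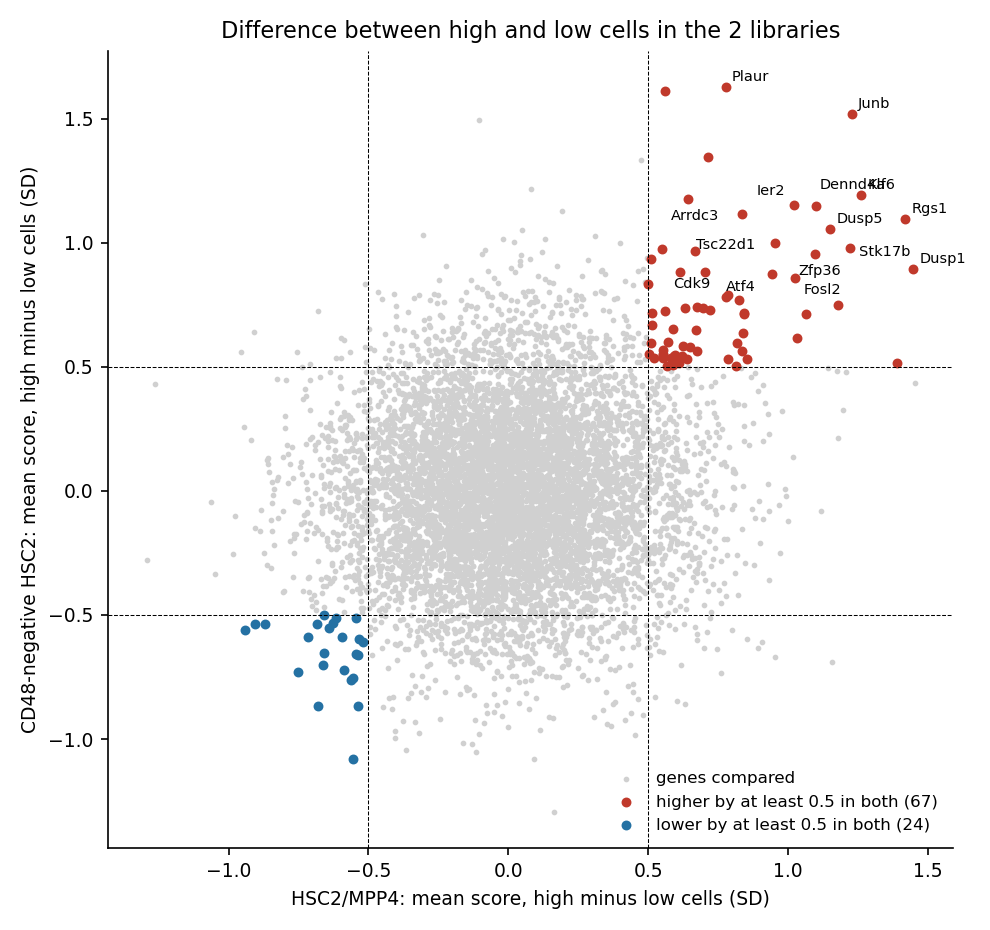
Difference in mean score between 25 high and 25 low cells (in SD) in HSC2/MPP4 (x axis) and CD48-negative HSC2 (y axis), with 1 point per gene, dashed lines at 0.5 and -0.5, the 67 genes higher in both in red and the 24 lower in both in blue. Junb, at 1.23 and 1.52, is among the 6 genes beyond 1 in both.

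Among AP-1 factors, Junb and Fosl2 were higher in both libraries. Junb encodes a partner of Fos in AP-1 (gene on chromosome 8, 84974484 to 84978718, minus strand, GRCm38). Its level was 0, 890.2 and 3469 CPM (lowest, median, highest) in high and 0, 109 and 2128 in low HSC2/MPP4 cells, and 76.4, 1142 and 4235 against 0, 180.2 and 2096 CPM in CD48-negative HSC2. High and low cells overlapped, with the medians far apart in both libraries. The mean Junb score was 0.99 ± 1.12 (SD, n = 25 cells) against -0.24 ± 1.0 in HSC2/MPP4 and 1.37 ± 1.02 against -0.15 ± 0.90 in CD48-negative HSC2. After cells were thinned to 10000 counts, leaving out shallower ones, Junb was detected in 19 of 21 high and 12 of 22 low HSC2/MPP4 cells and in 21 of 21 and 14 of 19 CD48-negative HSC2 cells. Fosl2, a Fos-related subunit, was lower in abundance, with a median of 47.9 CPM in high and 0 in low HSC2/MPP4 cells and 29.8 against 0 CPM in CD48-negative HSC2, and score differences of 1.02 and 0.86. For Fosb, Jun and Jund the differences in HSC2/MPP4 were 1.14, 0.89 and 0.71, and those in CD48-negative HSC2, 0.497, 0.40 and 0.24, were under the size of the call. Maff, a small Maf protein, differed by 0.55 and 0.18. Over all 10 AP-1 members the median difference was 0.80 in HSC2/MPP4 and 0.32 in the CD48-negative library, beside 0.01 and -0.01 over all genes compared.

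Of the NR4A, EGR and KLF factors, Klf6 and Egr1 were higher in both libraries. Klf6, a zinc finger factor (chromosome 13, 5861482 to 5870394), was at 0, 445 and 1792 CPM in high and 0, 0 and 1473 in low HSC2/MPP4 cells. In CD48-negative HSC2 it was at 0, 548 and 2903 CPM in high and 0, 87.8 and 937 in low cells. A typical low HSC2/MPP4 cell therefore held no Klf6 count, and thinned to equal depth the gene was detected in 5 of 22 low and 19 of 21 high cells there. Egr1, an early growth response factor, differed by 0.67 and 0.97, but was present in only 9 high and 4 low HSC2/MPP4 cells and in 16 and 4 CD48-negative HSC2 cells. The closest relative of Nr4a1, Nr4a2, went with it in 1 library alone: its difference was -0.11 in HSC2/MPP4 and 1.49 in the CD48-negative library, where no low cell held a count. Klf2 differed by 1.21 and 0.48. Srf, the factor that acts at serum response elements, was the only member of these 4 response lists below 0 in both libraries, at -0.39 and -0.35. All 10 members gave medians of 0.31 and 0.30.

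Other immediate early genes that were higher in both libraries were Ier2, Btg2, Rhob, Per1, Sik1 and Sgk1. They were 6 of the 12 compared (50%), beside 0.884% of all genes. Ier2, a small nuclear protein (chromosome 8, 84661331 to 84662852), was found in every high cell, at 148, 571 and 1517 CPM in HSC2/MPP4 and 209, 1486 and 2903 in CD48-negative HSC2. Low cells held 0, 151 and 877 CPM and 0, 382 and 2174. The SD of its score among high cells, 0.63 and 0.76, was the smallest of the 15 leading genes in both libraries, and the difference in mean score was 1.02 and 1.15. Btg2, which restrains proliferation, differed by 0.68 and 0.74. Per1, a clock gene that also responds to cAMP, differed by 0.56 and 0.72. Rhob, a small GTPase, differed by 0.70 and 0.88, and the kinases Sik1 and Sgk1 by 0.72 and 0.73 and by 0.51 and 0.93. Myc had opposite signs, -0.47 in HSC2/MPP4 and 0.44 in the CD48-negative library, and Mcl1, a survival gene of the BCL2 family, differed by 0.98 and 0.32.

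Of the inhibitors that feed back on signalling, 7 of 15 compared members (46.7%) were higher in both libraries, beside 0.884% of all genes. Dusp1, a phosphatase that inactivates MAP kinases, was at 0, 468 and 2483 CPM in high and 0, 0 and 1106 in low HSC2/MPP4 cells, and at 0, 548 and 4327 against 0, 271 and 921 CPM in CD48-negative HSC2. Related phosphatases Dusp5 and Dusp6 differed by 1.15 and 1.05 and by 0.84 and 0.71. Zfp36 encodes tristetraprolin, which binds AU-rich elements and speeds the decay of short-lived RNA (chromosome 7, 28376784 to 28380253, minus strand). It was at 0, 331 and 2839 CPM in high and 0, 93.9 and 1887 in low HSC2/MPP4 cells, and at 0, 479 and 3750.1 against 0, 203 and 1284 CPM in CD48-negative HSC2. Rgs1, which shortens G protein signalling downstream of chemokine receptors (chromosome 1, 144242296 to 144249242), was found in every high cell, with medians of 1780.4 and 1910.3 CPM in high and 81.2 and 506 in low cells. Its highest low cell in CD48-negative HSC2 held 7354 CPM, above most high cells there. Rgs2, of the same family, differed by 1.06 and 0.71, and Nfkbiz, a nuclear regulator of NF-kB, by 0.84 and 0.72. Nfkbia, the classical NF-kB inhibitor, had opposite signs, 0.42 and -0.37.

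**Figure D3:**
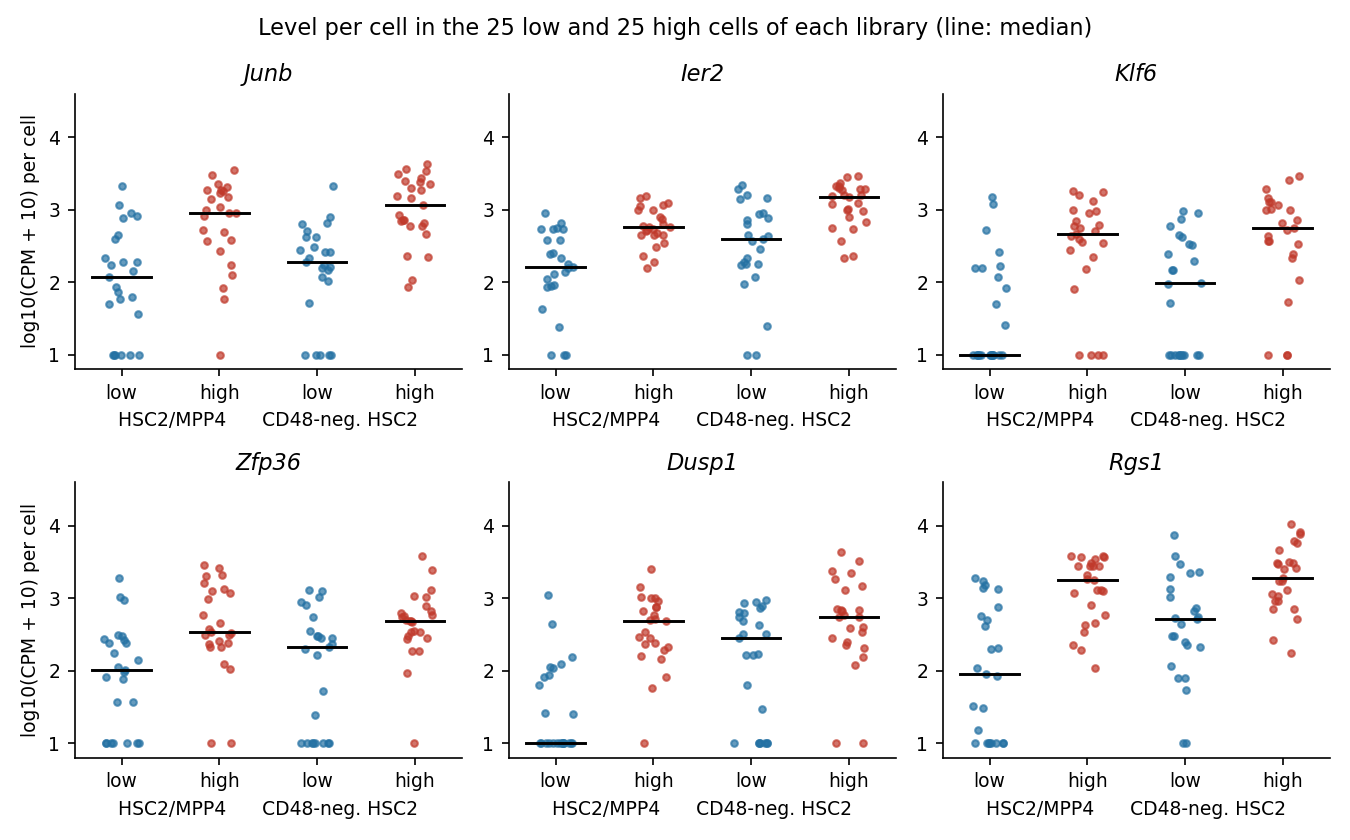
Level per cell of 6 genes, as log10(CPM + 10) on the y axis, in the 25 low (blue) and 25 high (red) cells of HSC2/MPP4 (left pair) and CD48-negative HSC2 (right pair), with a line at the median and points spread sideways for sight. Median levels are higher in high cells for all 6 genes in both libraries, for Rgs1 at 1780.4 against 81.2 CPM in HSC2/MPP4, and the 2 groups of cells overlap in each panel.

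The promoters of 3 of these genes are shown because they carry the 2 classical elements of this response and, in Junb, the core of 1 of them. Each line is a window of 300 bases, 250 before and 50 after the RefSeq start in GRCm38.p6, 5' to 3' on the strand of the gene. Capitals mark a serum response element core in Zfp36 (CC, 6 bases that are each A or T, then GG), a full cAMP response element and a further core TGACG in Dusp1, and, in Junb, the core TGACG, which begins 106 bases before the start, and the letters TATAAA, which begin at the start itself. The windows lie at chr8:84978699-84978998 for Junb, chr7:28379179-28379478 for Zfp36 and chr17:26508423-26508722 for Dusp1, all on the minus strand. For Junb the RefSeq start lies upstream of the GENCODE gene start given above (84978718), so TATAAA lies before the GENCODE start.
Junb: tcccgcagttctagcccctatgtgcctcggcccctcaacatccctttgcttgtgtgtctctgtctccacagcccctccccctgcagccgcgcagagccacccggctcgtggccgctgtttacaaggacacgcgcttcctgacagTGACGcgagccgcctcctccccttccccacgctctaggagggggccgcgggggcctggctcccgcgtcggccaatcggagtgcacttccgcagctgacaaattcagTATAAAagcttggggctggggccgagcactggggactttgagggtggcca
Zfp36: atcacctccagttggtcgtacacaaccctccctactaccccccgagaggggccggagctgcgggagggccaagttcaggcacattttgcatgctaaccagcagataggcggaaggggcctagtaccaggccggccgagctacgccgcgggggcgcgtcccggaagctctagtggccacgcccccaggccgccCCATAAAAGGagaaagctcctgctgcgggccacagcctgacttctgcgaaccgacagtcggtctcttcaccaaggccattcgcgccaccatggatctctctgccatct
Dusp1: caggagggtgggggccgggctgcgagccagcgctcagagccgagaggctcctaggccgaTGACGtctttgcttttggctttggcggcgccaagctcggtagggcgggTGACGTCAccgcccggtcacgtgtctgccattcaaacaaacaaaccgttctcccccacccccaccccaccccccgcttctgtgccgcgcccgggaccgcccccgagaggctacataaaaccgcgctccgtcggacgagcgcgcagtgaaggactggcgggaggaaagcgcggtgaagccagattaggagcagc

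The Zfp36 element CCATAAAAGG begins 58 bases before the start, and the Dusp1 element TGACGTCA begins 143 bases before it. Over both strands, 45 of the 67 higher genes matched an entry of the RefSeq table. Of these, Dusp5 and Zfp36 held the serum response core (4.44%, beside 1.41% of all 6085 compared genes with an entry), and Dusp1 and Btg2 the full cAMP element (4.44% beside 3.71%). The core TGACG, which the full element contains, occurred in 20 (44.4% beside 38.9%). The AP-1 site TGANTCA was present in 3 (6.67% beside 5.31%), the EGR site in 7 (15.6% beside 6.51%), the letters TATAAA in 4 (8.89% beside 7.46%), and NBRE, the sequence NR4A proteins bind, in 0 (beside 1.18%). These shares are per gene, and a gene can have several windows. Per window (71 of higher and 7781 of all compared genes), 3 of them changed sides. TGACG was in 29.6% beside 33.7%, the full cAMP element in 2.82% beside 3.17% and the AP-1 site in 4.23% beside 4.43%. The serum response core (2.82% beside 1.12%), EGR site (9.86% beside 5.47%) and TATAAA (8.45% beside 6.08%) did not. These are matches of letters in a short window, given as a description with no test.

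Across the 4 response lists together, 17 of 41 compared members were higher in both libraries, beside 0.884% of all genes, and 0 were lower, beside 0.317%. Above 0 in both libraries were 34, beside 25.6% of all genes, and below 0 in both was 1, beside 25.7%. The lists have 58 members, of which 56 are in the table and 54 had recovered counts, and they were written with results of these data known, so this count describes the cells and is no independent evidence. The same 17 genes were averaged per cell, where a gap between high and low cells is fixed by how the genes were chosen, so the values show the spread among cells only. Their mean score was -0.07, 0.79 and 1.90 (lowest, median, highest) in high, 0.25 at the median in cells between the groups and -0.88, -0.43 and 0.78 in low HSC2/MPP4 cells. In CD48-negative HSC2 it was 0.15, 0.74 and 1.87 in high, 0.49 at the median in cells between the groups and -0.70, -0.15 and 0.67 in low cells. High and low cells overlapped in both libraries. Counted per cell, again over genes chosen for the difference, the number of the 67 higher genes above the median of the library was 29, 39 and 52 in high and 11, 25 and 47 in low HSC2/MPP4 cells, and 25, 39 and 59 against 12, 23 and 49 in CD48-negative HSC2. No high cell carried all 67.

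Outside the response lists, 50 further genes were higher in both libraries. Among the 15 leading genes, Dennd4a, which activates Rab GTPases, differed by 1.10 and 1.15, the kinase gene Stk17b by 1.22 and 0.98, and Tsc22d1, a leucine zipper protein of the TGF-beta response, by 0.95 and 1.0. Plaur, the urokinase receptor, differed by 0.78 and 1.63, with a median of 80 CPM in high and 0 in low HSC2/MPP4 cells and 156 against 0 CPM in CD48-negative HSC2. Cdk9, the kinase that releases paused RNA polymerase II, differed by 0.78 and 0.79, and Arrdc3, an arrestin-domain protein, by 0.83 and 1.12. Signal-related genes also included Smad7, the inhibitor of TGF-beta signalling (0.56 and 1.61), the Notch target Hes1 (0.72 and 1.34), the cAMP phosphodiesterase Pde4b (1.03 and 0.62), the small GTPase Gem (0.52 and 0.54) and Tsc22d3, a glucocorticoid-induced gene (0.84 and 0.64). These 5 were singled out after their values were seen.

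Among NF-kB targets and chemokines, Cd69, Ccl3 and Nfkb1 were higher in both libraries, 3 of 7 compared, beside 0.884% of all genes. Ccl3, a chemokine, was at a median of 198 CPM in high and 0 in low HSC2/MPP4 cells, but at 0 in both groups of CD48-negative HSC2, and differed by 1.39 and 0.52. Cd69, an early activation antigen, differed by 0.85 and 0.53, and in CD48-negative HSC2 its median was again 0 in both groups. Ccl4, a related chemokine, differed by 1.45 and 0.43. The chemokine differences were thus carried by part of the cells. The list median over all 13 members was 0.61 in HSC2/MPP4 and 0.30 in the CD48-negative library.

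Of the 10 compared ATF4 and unfolded protein response genes, Atf4 (0.94 and 0.87) and Ddit4 (0.59 and 0.51) were higher in both, and the list median was 0.07 and 0.15. Atf4, a factor of the amino acid and stress response, was at 23.2, 398 and 1403 CPM in high and 0, 192 and 819 in low HSC2/MPP4 cells. Heat shock and chaperone genes had 0 of 6 higher, which with 0.884% of all genes higher says nothing about them, and medians of 0.04 and 0.36. Dnajb1 differed by -0.01 and 0.55, and Hspa1a, which did not pass the filter on low genes, by -0.94 and 0.57.

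Identity and cell cycle genes were described by their medians, since with 0.884% of all genes higher and 0.317% lower in both libraries, 0 calls in lists of this size is no result about them. The 12 compared HSC genes had 0 calls and medians of 0.17 and 0.11. Above 0 in both libraries were 7 of them, beside 25.6% of all genes, and below 0 in both were 0, beside 25.7%. Summed per cell, the list had a median of 1557 CPM in high and 716 in low HSC2/MPP4 cells, and 3280 and 2694 in CD48-negative HSC2. The stem cell genes Procr and Mecom were at -0.12 and 0.20 and at 0.06 and 0.27. All 20 S phase genes were compared and 0 reached the call. Below 0 in both libraries were 11 of them, beside 25.7% of all genes. Their medians were -0.37 in HSC2/MPP4 and -0.07 in the CD48-negative library. Summed per cell, S phase genes had a median of 1342 CPM in high and 3729 in low HSC2/MPP4 cells. In CD48-negative HSC2 the high cells had the larger value, 1114 against 928 CPM. Members with opposite signs in the 2 libraries included Uhrf1 (-0.64 and 0.20) and Slbp (-0.36 and 0.50). G2/M genes were below 0 in both libraries for 9 of 10 compared, beside 25.7% of all genes, with medians of -0.30 and -0.19. High and low cells differed in depth and may differ in gate, whose part in these medians was not tested. Top2a, a topoisomerase of dividing cells, differed by -0.35 and -0.32, and Rrm2, a subunit of ribonucleotide reductase, by -0.47 and -0.37. Megakaryocyte-platelet genes had medians of 0.26 and 0.45 over the 5 compared, with 0 called, and of 0.08 and 0.07 over all 14 with scores. Interferon response genes had 0.21 and 0.20 over the 6 compared, with 0 called, and 0.20 and -0.01 over all 10.

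**Figure D4:**
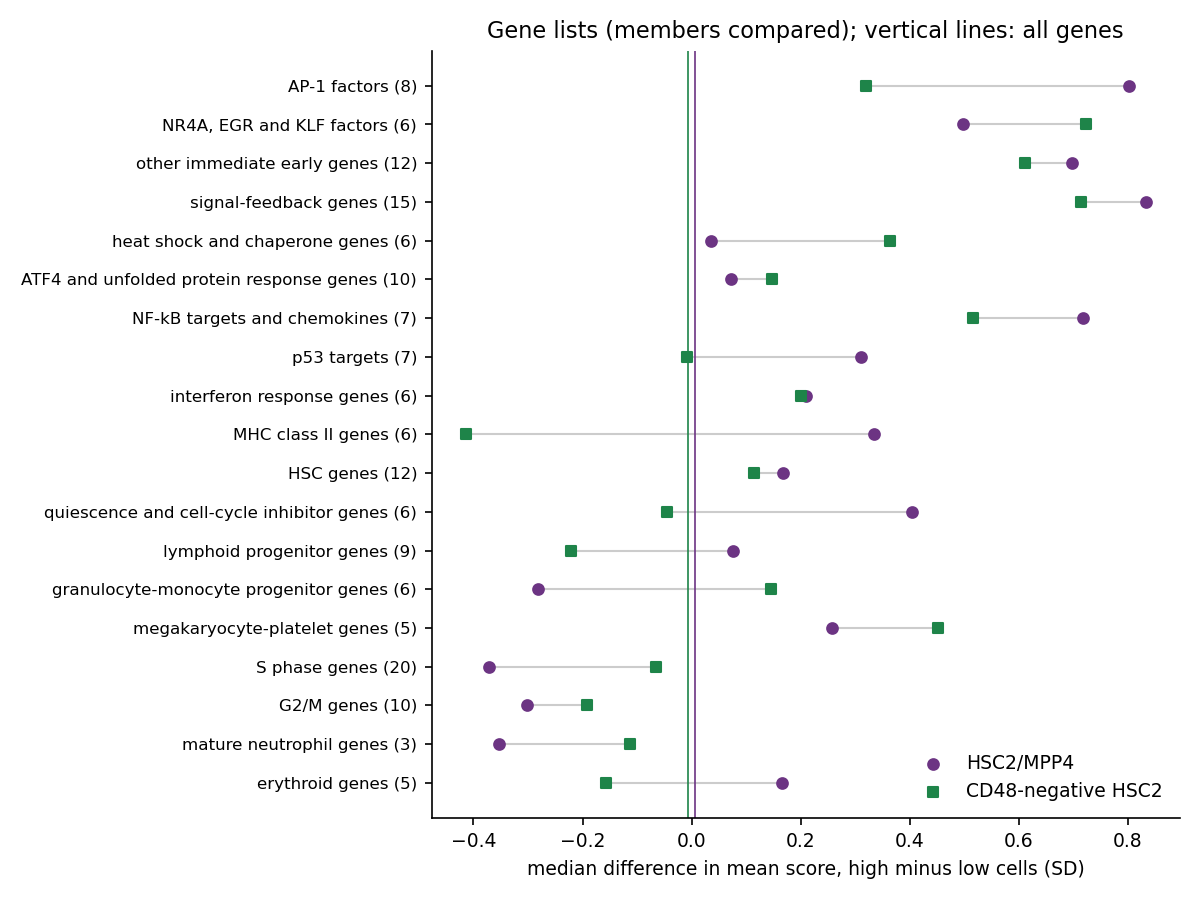
Median difference in mean score between high and low cells (x axis, in SD) over the compared members of each gene list with at least 3 (number in brackets), for HSC2/MPP4 (circles) and CD48-negative HSC2 (squares), with vertical lines at the medians of all genes, 0.01 and -0.01. The 4 response lists and the NF-kB list lie between 0.32 and 0.83 in both libraries, and the S phase and G2/M lists below 0.

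Of the 24 genes lower in high cells (0.317% of all compared), none differed by 1 or more in both libraries. Genes of opposite direction numbered 33 (0.436%, higher in HSC2/MPP4 and lower in CD48-negative HSC2) and 14 (0.185%, the reverse). The lower genes are therefore described singly, and their number is no result about them as a set. With 25 cells per side the lower genes were fewer than the 67 higher genes, and with 15 cells per side more numerous, at 143 against 123. Ube2g1, a ubiquitin-conjugating enzyme, differed by -0.75 and -0.73, with a median of 0 CPM in high and 78.2 in low HSC2/MPP4 cells and 0 in both groups of CD48-negative HSC2. At equal depth Ube2g1 was detected in 6 of 21 high and 15 of 22 low HSC2/MPP4 cells and in 2 of 21 and 9 of 19 CD48-negative HSC2 cells. Rnaseh2c, a subunit of the nuclease that removes RNA from RNA-DNA hybrids, had medians of 0 CPM in high against 173 in low HSC2/MPP4 cells and 0 against 93.4 in CD48-negative HSC2, and at equal depth was detected in 10 of 21 against 17 of 22 cells and in 7 of 21 against 9 of 19. Nedd8, a ubiquitin-like modifier, differed by -0.59 and -0.72, and at equal depth was detected in 16 of 21 high and 20 of 22 low HSC2/MPP4 cells and in 17 of 21 and 17 of 19 CD48-negative HSC2 cells. Msrb2, a methionine sulfoxide reductase of mitochondria, differed by -0.56 and -1.08, and at equal depth was detected in 3 of 21 against 11 of 22 cells and in 4 of 21 against 10 of 19. Low HSC2/MPP4 cells were the deeper ones, and 6 of the 21 lower genes still compared were called again in the same cells thinned to 10000 counts. The other 11 leading lower genes were Commd10, Arl6ip4, Hmox2, Clptm1, Pot1a, Urgcp, Cdc123, Trappc13, Supt16, Dnph1 and Eif4a3. No lower gene belonged to any of the 24 gene lists, which with 0.317% of all genes lower is no result about them.

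Markers of 7 other cell types summed to at most 262 CPM in the median cell of every group, but a few cells, more of them low in HSC2/MPP4, were rich in them. The summed level of the mature neutrophil list was 58.2 CPM in the pooled high and 14412 CPM in the pooled low HSC2/MPP4 cells, where single cells ran from 0 to 743 CPM in high and from 0 to 313547 in low cells and 4 of 10 members were at 0 in either group. Summed erythroid genes were at 280 against 1043 CPM in HSC2/MPP4 and 814 against 9430 CPM in CD48-negative HSC2, where the highest low cell held 73402 CPM. T cell and NK cell genes summed to 188 CPM in high and 781 CPM in low HSC2/MPP4 cells. Cells above 1000 CPM of any of 7 such lists numbered 2 high and 5 low in HSC2/MPP4 and 4 high and 4 low in CD48-negative HSC2. With those cells left out, an alternative added after the data were seen, 64 genes were higher in both libraries (45 of them among the 67) and 49 were lower (20 among the 24). The higher count was thus about as large without them and the lower count larger. Of 9 mitochondrial genes, 6 were above 0 in each library, beside 3845 (HSC2/MPP4) and 3723 (CD48-negative HSC2) of the 7577 genes compared. Their medians were 0.18 and 0.26, and their part in the result was not tested.

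The same ranking was applied to the other 4 libraries. High cells there had the higher median total count, the reverse of the HSC2 libraries. The medians were 101624 against 65659 in double-negative, 60761 against 43640 in HSC1, 174416 against 67327 in HPC1 and 198804 against 99284 in MPP2-containing cells. In the same order, 17, 12, 7 and 0 of the 25 high cells held no Nr4a1 count. The part of depth in the differences below was not tested. Since the genes were chosen for reaching 0.5 in the HSC2 libraries, their sizes there and here were not compared. Of the 67 higher genes, 47 were above 0 in double-negative, 47 in HSC1, 49 in HPC1 and 53 in MPP2-containing cells, beside 50.1%, 47.9%, 49.6% and 49.6% of all genes compared. Their median difference was 0.17, 0.12, 0.17 and 0.29, and a difference of at least 0.5 was reached by 10, 9, 8 and 24 of them, beside 4%, 4.05%, 2.61% and 2.85% of all genes. All 4 libraries were above 0 for 28 of the 67, beside 7.21% of all genes. Junb, Ier2 and Zfp36 reached 0.5 in every one of the 4: Junb at 1.03, 0.78, 0.81 and 1.28, Ier2 at 0.84, 0.92, 1.01 and 1.38, and Zfp36 at 0.63, 0.82, 0.84 and 1.18. Klf6 did so in double-negative (0.74) and MPP2-containing (1.26) cells. By contrast Dennd4a (-0.22), Stk17b (-0.07) and Fosl2 (-0.12) were below 0 in double-negative cells, and Cdk9 was at -0.44 in HPC1. The 24 lower genes had medians of -0.13, -0.11, 0.11 and 0.00, and 2 were below 0 in all 4 libraries beside 7.55% of all genes. Nr4a1 itself, which chose the cells in each library, differed by 0.41, 0.43, 0.72 and 1.24 in these libraries and by 2.54 and 3.16 in the HSC2 libraries, while Fos differed by 1.38 to 2.01 in all 6. The ranking in the other 4 libraries thus rested more on Fos.

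**Figure D5:**
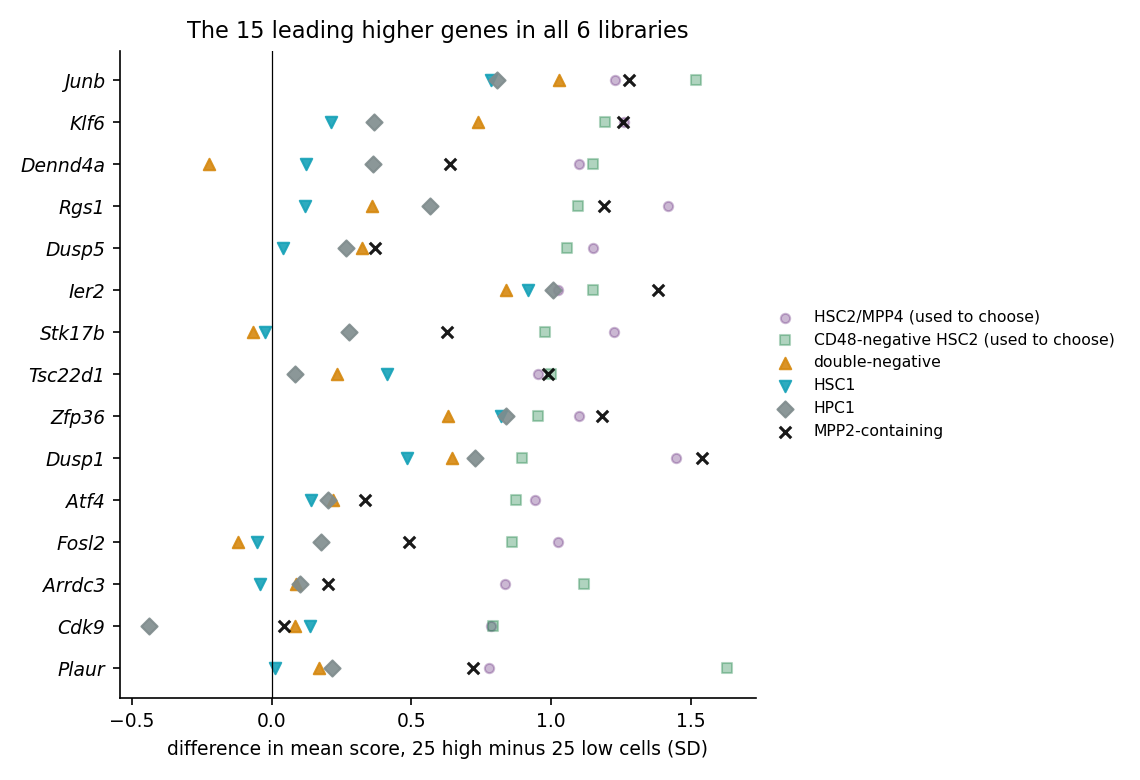
Difference in mean score between 25 high and 25 low cells (x axis, in SD) of the 15 leading higher genes (y axis) in each of the 6 libraries, with faint symbols for the 2 libraries used to choose the genes. Junb, Ier2 and Zfp36 lie at 0.63 or above in all 6, while Cdk9 lies at -0.44 in HPC1.

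The higher genes followed Fos and Nr4a1 to different degrees. Over the cells of a library, 18 of the 67 were closer in rank to Fos than to Nr4a1 in both libraries and 28 closer to Nr4a1 in both. The same shares over all genes were not computed. Since the 67 genes were chosen through both scores in these same cells, the split is no independent evidence. Nr4a1 also differed more than Fos between the chosen cells. Zfp36 was among the first, with Spearman values of 0.54 with Fos and 0.21 with Nr4a1 in HSC2/MPP4 and 0.41 and 0.20 in CD48-negative HSC2. Klf6 likewise gave 0.53 and 0.31, and 0.35 and 0.31. Hes1 lay at the other end, with -0.05 with Fos and 0.25 with Nr4a1 in HSC2/MPP4 and 0.08 and 0.34 in CD48-negative HSC2. Most of these values are weak, and the cells share a library and its range of depths, so they are given as a description; these 3 genes were singled out after their values were seen.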

How the data were processed

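Single cells of 6 libraries, 1 per group, were used. Per the submitters' processing notes, TopHat, HTSeq and mm10 were used; not given in the sources used here are versions, annotation, strand use, cell filter and doublet removal, and no doublet caller was run. The values deposited by the authors are scores in units of each gene's SD over 497 cells, limited to 10. A mean of 0 was checked for the 9901 genes never at the limit. The authors' normalisation is not given in the sources used here. That 4 cell covariates had been regressed out was a setting of the recovery described below. The HSC2 tables carry no gene names; their lines follow the joint table after its 6 blank-name lines are dropped (joint means within 1.1e-10 of 0 for 9901 genes never at the limit, median distance 0.0327 when shifted by 1 line).

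Whole counts were recovered for 12458 of 13278 genes by undoing the scaling. Of their values under 50, 100% were whole within 0.01, but a gene was kept only when nearly all such values were whole. That share is therefore fixed by the choice of genes and is no evidence for the recovery. The procedure was also run on simulated data, which reused the cell totals and covariates fitted to these cells. CPM of a cell's total were computed from the recovered counts. The total was 2386 counts in the lowest CD48-negative HSC2 cell and 530 in the lowest HSC2/MPP4 cell. Of a cell's counts, 48.7 to 78.7% lie in recovered genes. The total per cell limits detection of low genes.

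The comparison was high minus low mean score. Genes detected in at least 10% of the cells of each library were compared and called at 0.5 or more in both. Named genes are the 15 leading in each direction by the weaker of both differences, among called genes detected in at least 25% of cells, without predicted, mitochondrial and ribosomal genes, plus members of the gene lists. The cells, members and lists were chosen with earlier results of these data known. In all, 16 other settings and 3 added after the data were seen were computed. Python 3.11.15, NumPy 2.4.6, SciPy 1.17.1, pandas 2.3.3 and matplotlib 3.10.9 were used; gene positions are from GENCODE M21.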

Additional observations from a re-analysis of the deposited data

Results flagged for a closer look

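Of the gene lists with at least 5 compared members, 6 had median differences of opposite sign in the 2 HSC2 libraries, and none of these differences between libraries was tested. For MHC class II genes the median was 0.33 in HSC2/MPP4 but -0.41 in CD48-negative HSC2, with H2-Ab1 at 0.73 and -0.49. Summed per cell, these genes had a median of 700 CPM in high and 419 in low HSC2/MPP4 cells. The highest high cell there held 67448 CPM and the highest low cell 1744. In CD48-negative HSC2 the medians were 645 and 613 CPM, and the highest cells held 2993 and 9268. Quiescence and cell-cycle inhibitor genes were at 0.40 and -0.0449, and p53 targets at 0.31 and -0.00936. Lymphoid progenitor genes were at 0.0766 and -0.22, with Flt3 at 0.08 and -0.44. Granulocyte-monocyte progenitor genes were at -0.28 and 0.14, and erythroid genes at 0.17 and -0.16.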

How the results depend on the processing

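The counts of 67 higher and 24 lower genes depended on the size of the groups and on the scale. With 15 cells per side, 123 genes were higher and 143 lower; with the 25 highest cells against all others, 28 and 5. By log2 ratio of mean CPM with 10 added, 101 and 76; with 1 added, 240 and 193; with 50 added, 16 and 3; by pooled CPM, 116 and 50. At a size of 0.75, 17 were higher and 0 lower. With cells chosen by Fos alone, 53 were higher and 39 lower; by recovered level, 56 and 44; without cells rich in other cell types' genes, 64 and 49. With 15 cells per side among cells of 10000 to 60000 counts, 98 were higher and 134 lower, so depth range and group size changed together. Thinned to 10000 counts and ranked again, 48 were higher (24 of the 63 higher genes still compared) and 17 lower (6 of 21); in the same cells thinned, 59 (35 of 63) and 26 (6 of 21). The count range, the thinning of the same cells and the removal of cells were added after the data were seen. Junb, Klf6, Rgs1, Dusp5, Tsc22d1 and Zfp36 were called under all 19 alternatives, the other leading higher genes under 13 or more and the leading lower genes under 6 to 14. With 1 library per group, no library could be left out, and no paired analysis was possible because no sample is replicated.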
